A study of Mus musculus with 2 samples.

Results

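The inflammatory and interferon-induced chemokines described here are 10 genes, Ccl2, Ccl3, Ccl4, Ccl8, Ccl24, Cxcl1, Cxcl2, Cxcl9, Cxcl10 and Cxcl11, taken by symbol from a table of 22508 genes. All 10 were found. The study has 1 group of 2 samples, called WT replicate 1 and replicate 2 here, each made from enzymatically dissociated liver of 8-week-old C57BL/6 mice, cleaned on a Percoll gradient and sequenced as single cells from droplets. No treatment or mutation was given for either sample, and the labels do not say whether the samples came from separate animals. The table holds raw counts of unique molecular identifiers (UMIs, 1 per captured RNA molecule) in 9703 cells.

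Chemokines are small secreted proteins that draw leukocytes along a gradient by binding G protein-coupled receptors. Cxcl1 and Cxcl2 act on Cxcr2 of neutrophils, and Cxcl9, Cxcl10 and Cxcl11, which interferons induce, act on Cxcr3 of activated T and NK cells. Ccl2 recruits monocytes through Ccr2, Ccl3 and Ccl4 draw macrophages and T cells (Ccl3 in part through Ccr1), and Ccl24 draws eosinophils through Ccr3. In the liver, Kupffer cells are the resident macrophages of the sinusoids, sinusoidal endothelial cells line these vessels, and stellate cells are the pericytes beside them.

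Cells were assigned to types by UMIs of fixed marker genes, and types are called "-like" because they rest on markers alone. The table gave 2518 Kupffer-like, 2821 sinusoidal endothelial-like and 2338 stellate-like cells, and 10 further types of 21 to 154 cells. Of the stellate-like cells 2332 were in replicate 2 and 6 in replicate 1, while every cell of the other types was in replicate 1. A cell type and its library thus cannot be told apart, and no test between types was possible. Values carry exact 95% intervals, and these take in counting error alone. CPM are UMIs of a gene per 1000000 UMIs of all genes, summed over the cells of a type. Median depth was 4096 UMIs per Kupffer-like, 4932 per sinusoidal endothelial-like and 5010 per stellate-like cell. The libraries shared 5 cell barcodes, and 591 cells that passed the cell filter had no type.

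By library, summed over cells that passed the filter, Ccl2 stood at 51.9 CPM in replicate 1 and 398 CPM in replicate 2. The reverse order held for Ccl24 (196 and 1.52 CPM), Cxcl2 (546 and 15.2 CPM), Cxcl9 (187 and 12.6 CPM) and Ccl4 (293 and 13.3 CPM). Cxcl1 stood at 165 CPM in replicate 1 and 155 CPM in replicate 2.

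**Figure D1:**
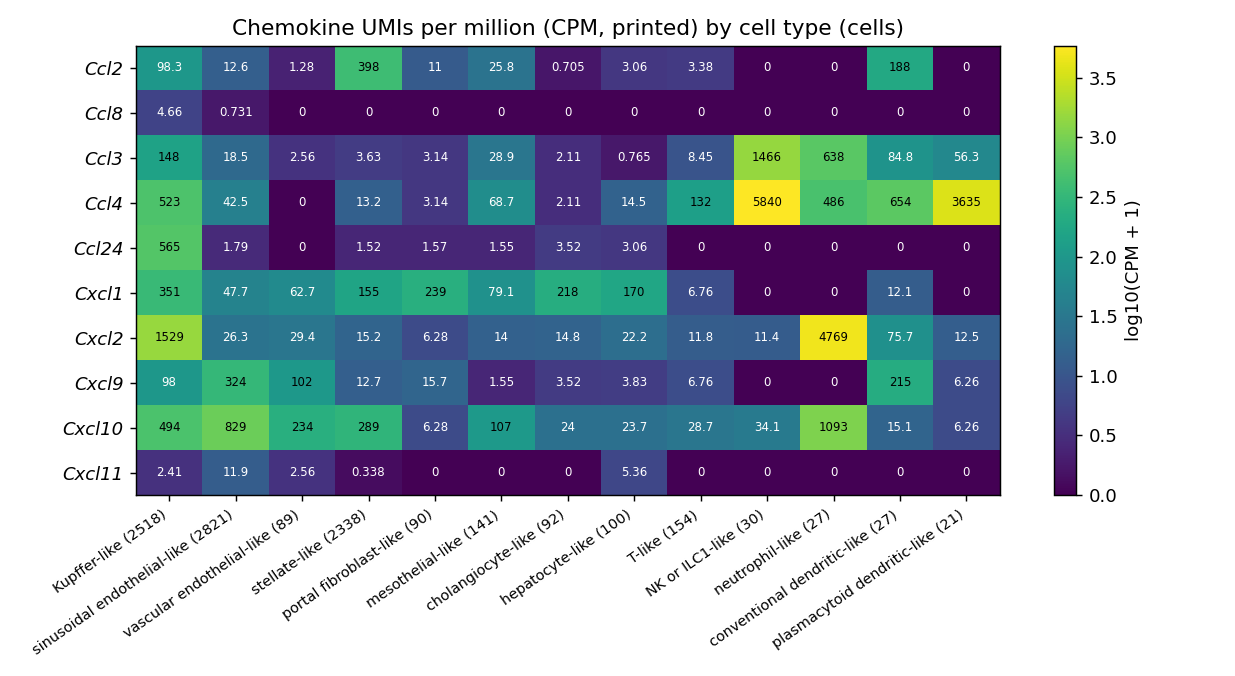
Level of each chemokine (rows) in the 13 cell types with at least 20 cells (columns, number of cells in brackets), as CPM printed in each field and coloured as log10(CPM + 1). Ccl24 is at 565 CPM in Kupffer-like cells and at most 3.52 CPM elsewhere, while Cxcl1 is above 100 CPM in 5 of the 13 types.

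The first question was which cells carried each chemokine. In 6 of the 10 chemokines the highest type stood at least 2-fold above the next, a share to be read beside 24.8% of the 14853 genes with at least 50 UMIs. The 6 were Ccl2, Ccl3, Ccl8, Ccl24, Cxcl2 and Cxcl11. The median fold of the highest type over the next was 2.17 for the 10 chemokines and 1.37 for all genes tested. With types of at least 50 cells only, 8 of 10 were called, against 26.1% of genes, because the small neutrophil, NK and dendritic groups then dropped out. Kupffer-like cells were then highest for Ccl3, Ccl4, Ccl8, Ccl24, Cxcl1 and Cxcl2, sinusoidal endothelial-like cells for Cxcl9, Cxcl10 and Cxcl11, and stellate-like cells for Ccl2.

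Among the ligands of Cxcr2, Cxcl2 was highest in myeloid cells and Cxcl1 was seen in many types. Cxcl2 reached 4769 CPM (4256 to 5326) in 27 neutrophil-like cells, from 314 UMIs, of which 93 lay in 1 cell. In Kupffer-like cells it stood at 1529 CPM (1507 to 1551), from 18394 UMIs, 87.6% of all its UMIs. The next level was 75.7 CPM in conventional dendritic-like cells, and stellate-like cells had 15.2 CPM. Of Kupffer-like cells 66.5% (64.6 to 68.3) held a Cxcl2 UMI, against 3.90% of 154 T-like cells, whose median depth was 3420.5 UMIs.

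Cxcl1 stood at 351 CPM (340 to 361) in Kupffer-like, 239 CPM (202 to 280) in portal fibroblast-like, 218 CPM (195 to 244) in cholangiocyte-like, 170 CPM (148 to 194) in hepatocyte-like and 155 CPM (148 to 162) in stellate-like cells. The intervals of portal fibroblast-like and cholangiocyte-like cells overlapped, as did those of hepatocyte-like and stellate-like cells. In 30 NK or ILC1-like, 27 neutrophil-like and 21 plasmacytoid dendritic-like cells no Cxcl1 UMI was seen. The limit that a count of 0 allows was 45.6 CPM in the neutrophil-like cells. Cxcl1 and Cxcl2, neighbours on chromosome 5, thus differed in their spread over types, and the correlation of their levels over 13 types was r = -0.15 on the log2(CPM + 1) scale.

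Promoter sequence from RefSeq (GRCm38.p6), the 250 bases before the annotated start, was at hand for 6 of the 10 genes. The promoters of Cxcl1, Cxcl2 and Cxcl10 are shown because they held matches to letters bound by NF-kB (GGG, any 3 bases, TTCC) or by interferon-activated factors (GAAA, any 2 bases, GAAA), searched on both strands and given in capitals.
Cxcl1, chr5:90890995-90891244 (plus strand): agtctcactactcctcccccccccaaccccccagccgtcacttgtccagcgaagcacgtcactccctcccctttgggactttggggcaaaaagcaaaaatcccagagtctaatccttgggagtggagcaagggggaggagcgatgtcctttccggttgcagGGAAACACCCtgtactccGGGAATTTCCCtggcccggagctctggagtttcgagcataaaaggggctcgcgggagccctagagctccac
Cxcl2, chr5:90903649-90903898 (plus strand): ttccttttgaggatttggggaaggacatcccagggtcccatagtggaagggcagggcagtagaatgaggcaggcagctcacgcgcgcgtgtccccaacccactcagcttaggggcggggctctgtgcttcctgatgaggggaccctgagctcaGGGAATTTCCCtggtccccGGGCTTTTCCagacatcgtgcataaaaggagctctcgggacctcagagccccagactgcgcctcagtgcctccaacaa
Cxcl10, chr5:92348890-92349139 (minus strand): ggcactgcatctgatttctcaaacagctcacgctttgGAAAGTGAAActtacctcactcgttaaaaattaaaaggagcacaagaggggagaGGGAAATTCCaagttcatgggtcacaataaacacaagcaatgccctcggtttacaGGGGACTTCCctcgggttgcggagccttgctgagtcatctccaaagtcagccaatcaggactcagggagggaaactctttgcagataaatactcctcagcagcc

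The run GGGAATTTCC, which also fits the stricter letters GGGA, any base, TTTCC, begins 71 bases before the start of Cxcl1 and 97 bases before that of Cxcl2. In each it overlaps a match on the other strand, and each promoter holds a further match, 89 and 78 bases before the start. In Cxcl10 matches to the looser NF-kB letters begin 159 and 104 bases before the start, and GAAAGTGAAA begins 213 bases before it. The windows of Ccl3, Ccl8 and Cxcl9 held neither run of letters. Of 32851 RefSeq promoter windows of this length 0.356% held the stricter and 4.65% the looser NF-kB letters, and 2.98% held the interferon letters. A match of letters is no measure of binding.

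Among the ligands of Cxcr3, Cxcl9 and Cxcl10 were high in sinusoidal endothelial-like cells. Cxcl9 stood there at 324 CPM (315 to 333, 4873 UMIs) and in 27 conventional dendritic-like cells at 215 CPM (168 to 271). The dendritic value rested on 3 cells, of which 1 held 69.0% of the UMIs. In Kupffer-like cells Cxcl9 was at 98.0 CPM (92.5 to 104), in vascular endothelial-like cells at 102 CPM and in stellate-like cells at 12.7 CPM. The intervals of the first 2 of these overlapped. Without cells that held 2 or more UMIs of another type's markers, which left 248 sinusoidal endothelial-like cells, Cxcl9 stood at 214 CPM there.

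Cxcl10 was spread over more types. It stood at 829 CPM (814 to 843) in sinusoidal endothelial-like, 494 CPM (481 to 506) in Kupffer-like, 289 CPM (279 to 299) in stellate-like, 234 CPM in vascular endothelial-like and 107 CPM in mesothelial-like cells, and at 6.28 CPM in portal fibroblast-like cells. The shares of cells with a Cxcl10 UMI lay closer together, at 45.2% of sinusoidal endothelial-like, 44.6% of Kupffer-like and 36.7% of stellate-like cells. After each cell was thinned to 1000 UMIs these shares were 29.0%, 26.3% and 15.4%. A value of 1093 CPM in neutrophil-like cells came from 2 cells, and 71 of its 72 UMIs lay in 1 of them.

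Cxcl11, which GENCODE lists as a polymorphic pseudogene in this assembly, was low in all 13 types. Sinusoidal endothelial-like cells held 179 of its 303 UMIs (11.9 CPM, 10.2 to 13.8), in 108 cells. Hepatocyte-like cells followed with 7 UMIs (5.36 CPM, 2.15 to 11.0), and the intervals of these levels overlapped. Without cells that held other types' markers it stood at 6.70 CPM in sinusoidal endothelial-like cells and was seen in 1.21% of them, against 3.83% of all. A further 58 UMIs lay in 2 of 13 monocyte-like cells.

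Ccl2 was highest in stellate-like cells, at 398 CPM (386 to 409) from 4706 UMIs, 70.2% of all its UMIs. Conventional dendritic-like cells had 188 CPM (144 to 241), from 62 UMIs in 4 cells, and Kupffer-like cells 98.3 CPM (92.7 to 104). Of stellate-like cells 33.7% (31.8 to 35.7) held a Ccl2 UMI, against 14.3% of Kupffer-like and 2.09% of sinusoidal endothelial-like cells. At 1000 UMIs per cell the shares were 16.9%, 6.29% and 0.608%. Without cells that held other types' markers, which left 146 stellate-like cells, Ccl2 stood at 260 CPM and was seen in 24.7%. The 6 stellate-like cells of replicate 1, with 20811 UMIs in all, held 0 UMIs of Ccl2, Cxcl1 and Cxcl10.

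Ccl3 and Ccl4, which lie side by side on chromosome 11 and are typical products of activated NK cells and macrophages, followed each other over types (r = 0.86 over 13 types). Ccl4 stood at 5840 CPM (5346 to 6367, 514 UMIs) in NK or ILC1-like and 3635 CPM (3345 to 3943, 581 UMIs) in plasmacytoid dendritic-like cells. It was seen in 24 of 30 NK or ILC1-like (80.0%) and 19 of 21 plasmacytoid dendritic-like cells (90.5%), so that these levels did not rest on 1 or 2 cells. Conventional dendritic-like cells had 654 CPM, Kupffer-like cells 523 CPM (510 to 536), neutrophil-like cells 486 CPM and T-like cells 132 CPM. Ccl3 had the same leading type, with 1466 CPM (1224 to 1741, 129 UMIs) in NK or ILC1-like cells, and then 638 CPM (460 to 862) in neutrophil-like and 148 CPM in Kupffer-like cells. In plasmacytoid dendritic-like cells Ccl3 was at 56.3 CPM from 9 UMIs. Kupffer-like cells nonetheless held 59.0% of all Ccl3 UMIs and 55.3% of all Ccl4 UMIs.

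Ccl24, an eotaxin known from alternatively activated macrophages, lay mostly in Kupffer-like cells, at 565 CPM (551 to 578) and 90.3% of its UMIs. The next of the 13 types, cholangiocyte-like cells, had 3.52 CPM from 5 UMIs. Of Kupffer-like cells 71.4% (69.6 to 73.2) held a Ccl24 UMI, against 0.957% of sinusoidal endothelial-like cells and 0 of 154 T-like cells, which allows a share of up to 1.95%. Outside the 13 types, 384 UMIs lay in 3 of the 13 monocyte-like cells.

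Ccl8, a ligand of Ccr8 in mice, was rare, with 368 UMIs in 36 cells. Kupffer-like cells had 4.66 CPM (3.52 to 6.05), with 29 of 56 UMIs in 1 cell (9.02 CPM without cells that held other types' markers), and 11 of the 13 types had 0 UMIs. Of the 367 UMIs in cells that passed the filter, 300 (81.7%) lay in 18 cells without a type, and 5 cells held 68.1%. Against all other cells, these 18 cells were led by Cbr2, F13a1, Fcrls, Mgl2 and Pf4, genes known from tissue macrophages, followed by Osm and Cx3cr1. F13a1, also a monocyte marker of the gate, was seen in 13 of the 18. Monocyte markers were seen in 14 of these cells and Kupffer markers in 11. Since the cells were chosen for Ccl8, the list is a description.

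Free RNA in droplets can add UMIs of a gene to cells that do not express it. In stellate-like cells the 6 Kupffer markers summed to 811 UMIs (68.5 CPM), against 202564 UMIs in Kupffer-like cells. Per 100 such marker UMIs, Ccl24 had 2.22 UMIs in stellate-like and 3.35 in Kupffer-like cells, where its 18 UMIs in stellate-like cells are few. By the same measure Ccl4 had 19.2 and 3.11 UMIs, Cxcl2 22.2 and 9.08, and Ccl2 580 and 0.584. In sinusoidal endothelial-like cells Ccl24 had 1.66 UMIs per 100 Kupffer marker UMIs, Cxcl9 300 and Cxcl10 767. These markers also set the gate, which bounds them in cells of other types. Nearly all stellate-like cells lay in replicate 2, where no Kupffer-like cell was found, so Kupffer-like cells give no measure of its free RNA. The ratios are thus a description, and the part of free RNA and of mixed droplets in these UMIs was not tested.

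The second question was how evenly a chemokine was spread over the cells of a type, a comparison added after the data had been seen. The share of cells with a UMI was set against the share that the same number of UMIs would give if every cell held them in proportion to its depth. In stellate-like cells 3 chemokines had enough UMIs, and all 3 were seen in under 50% of the even-spread share, which held for 0.0579% of 6914 genes (4 genes, the other being Rhox5). Ccl2 was seen in 33.7% of the cells against 83.7% for an even spread, Cxcl1 in 23.6% against 52.9% and Cxcl10 in 36.7% against 74.2%. The calls did not hold under every setting. Over the 3 types 8 values were called, against 0 when cells were thinned to 1000 UMIs and 2 without cells that held 2 or more UMIs of another type's markers. Among the stellate-like cells 92 held 50% of the Ccl2 UMIs, and the highest had 116.

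In sinusoidal endothelial-like cells 3 of 6 chemokines with at least 200 UMIs were called in this way, against 0.287% of 7665 genes. Cxcl10 was seen in 45.2% of cells against 92.9% for an even spread. Ccl3 and Ccl4 were also called, with 541 of 640 Ccl4 UMIs in 6 cells and 250 of 278 Ccl3 UMIs in 5. Of these 6 cells 4 held Kupffer marker UMIs, 4 monocyte marker UMIs and 2 basophil or mast marker UMIs, of which the whole type held 10, and their median depth was 11655.5 UMIs, against 4930 in the rest. The part of these markers and of depth in the result was not tested. Cxcl9 was seen in 45.0% against 74.2% and was not called, and without the cells that held other types' markers it was seen in 21.4%. The genes called beside them included the haemoglobin genes Hbb-bs and Hba-a1, the Wnt signal enhancer Rspo3, Egr1 and Atf3. Cd74, H2-Aa, H2-Ab1, H2-Eb1, Lyz2, Cd52 and Dcn were also called, and the part of mixed droplets in these calls was not tested.

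In Kupffer-like cells 2 of 8 were called, against 0.527% of 6452 genes. Cxcl9 was seen in 6.63% of cells against 34.4%, and 7 cells held 50% of its UMIs. The 23 cells with at least 10 Cxcl9 UMIs had a median of 98 Kupffer marker UMIs, against 66 in the rest, and of 4 monocyte marker UMIs, against 1. Their median depth was also higher, at 7842 UMIs against 4059, and the marker counts are not scaled to depth. The part of these markers and of the depth of these cells in the result was not tested. Ccl2 was seen in 14.3% against 34.4%. Ccl24 lay nearest to an even spread, at 71.4% against 81.7%, and Cxcl2 was seen in 66.5% against 95.6%.

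**Figure D2:**
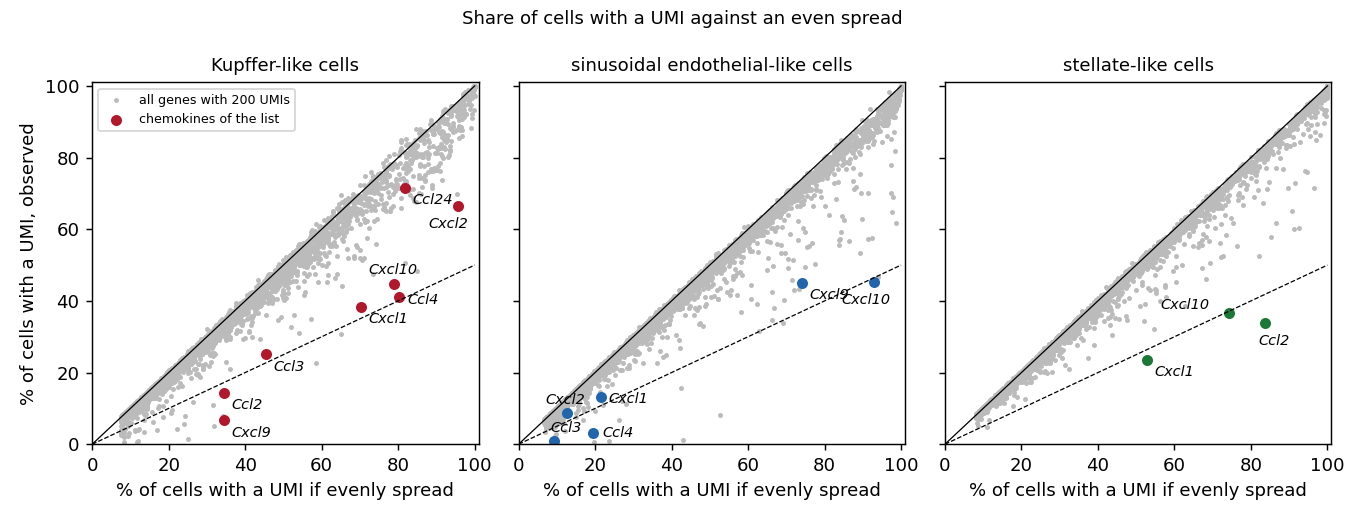
Share of cells with a UMI (vertical axis, %) against the share of an even spread in proportion to depth (horizontal axis, %), for each gene with at least 200 UMIs (grey) and the chemokines (coloured), in 3 cell types. The solid line marks equal shares and the dashed line 50% of the even-spread share. In stellate-like cells Ccl2, Cxcl1 and Cxcl10 lie under the dashed line, with 1 other gene.

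The share of UMIs in the top 5% of cells was a further measure. The top 126 Kupffer-like cells held 96.5% of Cxcl9, 75.0% of Ccl2, 53.1% of Ccl3, 48.6% of Ccl4, 40.0% of Cxcl1, 39.2% of Cxcl10, 31.8% of Ccl24 and 31.5% of Cxcl2 UMIs, where the median of all genes was 40.0%. The top 142 sinusoidal endothelial-like cells held 100% of Ccl3 and of Ccl4, 72.9% of Cxcl2, 67.4% of Cxcl1, 39.3% of Cxcl9 and 39.1% of Cxcl10 UMIs (median of all genes 37.4%). The top 117 stellate-like cells held 58.8% of Cxcl1, 56.8% of Ccl2 and 54.2% of Cxcl10 UMIs (median 34.8%). Sparse genes reach high values here, and a share of at least 50% was met by 26.4%, 23.7% and 16.8% of all genes in these 3 types. Taken in the type where each chemokine was highest, 2 of the 6 chemokines with at least 200 UMIs there passed 50%, Ccl2 in stellate-like cells and Cxcl2 in neutrophil-like cells (58.3%, 2 cells), where 6.9% of 29 genes did. Without cells that held other types' markers 0 passed, and 1 did after thinning or at no more than 5% mitochondrial UMIs.

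Depth moved with detection. Kupffer-like cells with a Cxcl2 UMI had a median of 4764 UMIs, against 2715 in those without. Sinusoidal endothelial-like cells with a Cxcl10 UMI had 5751.5, against 4114, and stellate-like cells with Ccl2 had 5362, against 4872. The mitochondrial share was lower in cells with these UMIs, with medians of 2.68% against 3.35%, 3.38% against 4.08% and 1.53% against 1.56%. The even-spread share takes depth into account, but the part of the mitochondrial share was not tested.

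The third question was whether chemokines were found in the same cells. Cells were thinned to 1000 UMIs, which left out 191 Kupffer-like, 89 sinusoidal endothelial-like and 2 stellate-like cells, and the number of cells with both chemokines was divided by that given by the product of their shares. At least 1 of the 10 was then seen in 82.0% of Kupffer-like, 43.4% of sinusoidal endothelial-like and 34.8% of stellate-like cells, and at least 3 in 27.4%, 1.87% and 1.76%.

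In Kupffer-like cells 2 of 27 combinations reached a ratio of 2, against 0.224% of the 11477508 gene combinations tested. Ccl3 and Ccl4 were together in 120 cells against 53.9 by the product (ratio 2.23, 1.86 to 2.65), and Ccl2 and Ccl4 in 74 against 33.8 (2.19, 1.73 to 2.74). Cxcl1 and Cxcl2 were together in 391 cells (1.54, 1.40 to 1.69), so that 78.8% of the cells with Cxcl1 also had Cxcl2. Ccl24 had ratios near 1 with 6 of the others, 0.89 with Ccl3, 0.92 with Ccl4, 0.93 with Cxcl10, 0.98 with Cxcl2, 0.99 with Cxcl1 and 1.03 with Ccl2, each with an interval that included 1. Cxcl9 and Ccl3 were together in 2 cells against 6.39 (0.31, 0.038 to 1.13), and Cxcl9 and Ccl24 in 35 against 23.4 (1.49, 1.04 to 2.07). The median ratio of the 27 was 1.33.

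In sinusoidal endothelial-like cells 2 of 10 combinations reached 2, against 0.198% of the 14165332 gene combinations tested. Both joined ligands of Cxcr3. Cxcl10 and Cxcl11 were together in 19 cells (2.51, 1.51 to 3.91) and Cxcl9 and Cxcl11 in 11 (2.08, 1.04 to 3.72). Cxcl9 and Cxcl10 were together in 256 cells against 162 (1.58, 1.40 to 1.78), and 46.1% of cells with Cxcl9 also had Cxcl10. In stellate-like cells 0 of 3 combinations reached 2, against 0.221% of the 12340115 gene combinations tested. Over the 3 types 4 combinations reached 2, against 2 at no more than 5% mitochondrial UMIs, 2 under doubled marker minimums and 1 without cells that held other types' markers. In stellate-like cells they stood at 1.92 for Ccl2 and Cxcl10 (1.59 to 2.29), 1.83 for Cxcl1 and Cxcl10 (1.43 to 2.32) and 1.78 for Ccl2 and Cxcl1 (1.39 to 2.25), each with an interval above 1.

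**Figure D3:**
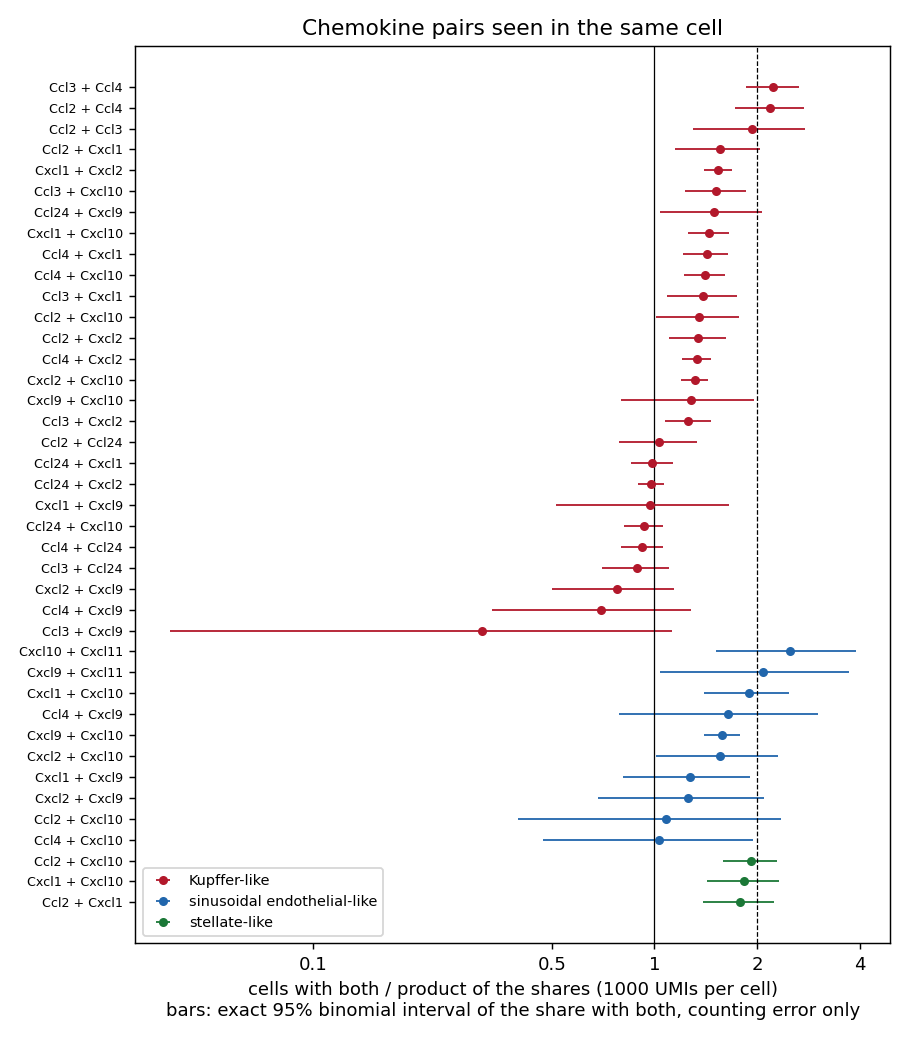
Ratio of the cells with both chemokines to the number given by the product of their shares (log axis), for the 40 combinations for which that number was at least 5 cells, with exact 95% intervals of the share with both. Ccl3 with Ccl4 leads in Kupffer-like cells at 2.23, and those of Ccl24 lie around 1, apart from that with Cxcl9 at 1.49.

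The genes that moved with the summed chemokines over cells were named by Pearson's r of log values within each type, as a description in which the cells share a library and depth. In Kupffer-like cells the highest were the cytokine Il1b (r = 0.54), the NF-kB regulators Nfkbiz (0.54), Nfkbia (0.50) and Tnfaip3 (0.49), then Cd83 (0.47) and Il6 (0.47). In sinusoidal endothelial-like cells they were the immediate early genes Fos (0.60) and Junb (0.60), the mRNA decay factor Zfp36 (0.60), Nfkbiz (0.58), Egr1 (0.57) and the cytokine signalling inhibitor Socs3 (0.57). In stellate-like cells they were Nfkbia (0.36), the interferon-responsive factor Irf1 (0.30), the adhesion molecule Icam1 (0.30), Atf3 (0.28) and Junb (0.27). The sum adds UMIs, so the most abundant chemokine of a type weighs most in it. That was Cxcl2 in Kupffer-like (18394 UMIs), Cxcl10 in sinusoidal endothelial-like (12467) and Ccl2 in stellate-like cells (4706).

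By list, the median r of NF-kB genes was 0.30 in Kupffer-like, 0.37 in sinusoidal endothelial-like and 0.15 in stellate-like cells. Immediate early and heat shock genes, which tissue dissociation is known to raise, stood at 0.34, 0.51 and 0.21. Within that list the 4 heat shock genes lay low, with Hspa1a at 0.14, Hspa1b at 0.09, Hsp90aa1 at 0.13 and Dnajb1 at 0.20 in sinusoidal endothelial-like cells, where the immediate early genes lay between 0.43 (Fosb) and 0.60 (Fos). In Kupffer-like cells the heat shock genes lay between -0.14 (Hspa1b) and 0.05 (Dnajb1), and they were the 4 of the list not above 0.2. Interferon-induced genes stood at 0.08, 0.11 and 0.07, and all genes tested at 0.03, 0.03 and 0.002. In Kupffer-like cells 90 of 7463 genes lay above r = 0.2. There 11 of 14 NF-kB genes, 10 of 14 immediate early and heat shock genes and 2 of 15 interferon-induced genes did. In sinusoidal endothelial-like cells the counts of these lists were 9 of 12, 10 of 14 and 4 of 15, beside 115 of 8366 genes. The interferon-induced genes were led there by Irf1 at 0.53. In stellate-like cells the counts were 4 of 10, 8 of 14 and 2 of 15, beside 25 of 8431 genes. The summed chemokines also had r = 0.25, 0.34 and 0.12 with log depth and -0.20, -0.22 and -0.07 with the mitochondrial share. The part of dissociation in the chemokine levels was not tested.

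**Figure D4:**
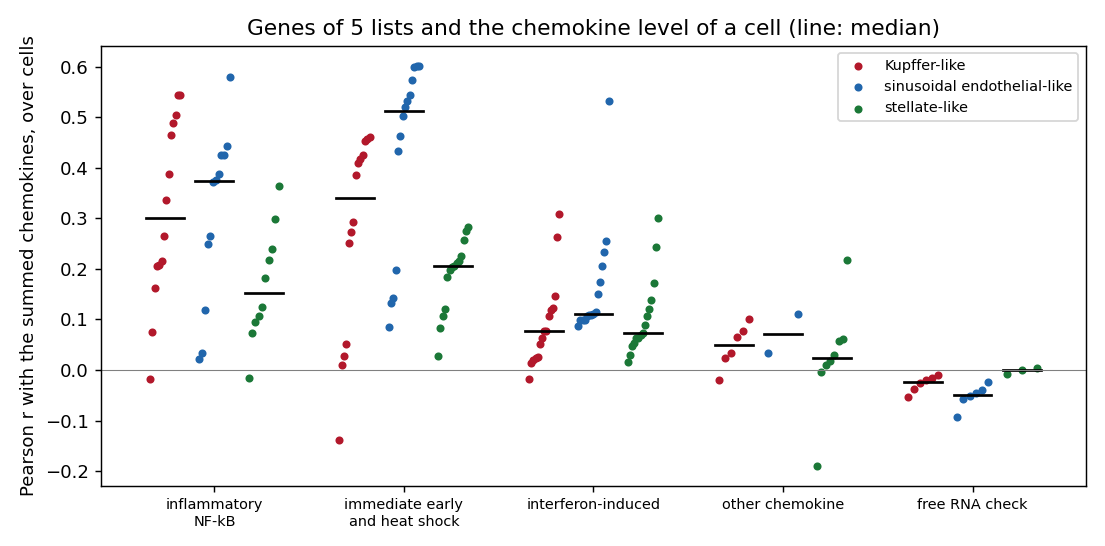
Pearson's r of single genes with the summed chemokines over cells (vertical axis), for 5 gene lists and 3 cell types, with a line at each median. The immediate early and heat shock list has a median of 0.51 in sinusoidal endothelial-like cells, and the plasma protein genes of the free RNA check have medians of -0.02 in Kupffer-like and -0.05 in sinusoidal endothelial-like cells.

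The fourth question was whether levels followed the central to portal axis of the lobule. Cells were ordered by a score of landmark genes of central and portal cells and split into 3 ranges, while their position in the tissue was not measured. In stellate-like cells Ccl2 stood at 186, 255 and 736 CPM in the central, middle and portal range, a portal to central fold of 3.96 (3.64 to 4.30). The share of cells with Ccl2 was 21.4%, 30.0% and 49.7%, at median depths of 4814, 5017 and 5249 UMIs. Cxcl10 stood at 209, 222 and 429 CPM (2.05, 1.88 to 2.23) and Cxcl1 at 126, 139 and 198 CPM (1.57, 1.40 to 1.76). Of 9721 genes 1.05% were at least 2-fold higher in the portal than in the central range, and Ccl2 and Cxcl10 were among them, while 1.15% were at least 2-fold lower and no chemokine with a fold was.

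In sinusoidal endothelial-like cells Cxcl9 stood at 192, 314 and 457 CPM from central to portal (2.38, 2.20 to 2.57) and Cxcl10 at 556, 888 and 1026 CPM (1.85, 1.76 to 1.93). Cxcl1 stood at 29.1, 48.8 and 63.8 CPM (2.19, 1.79 to 2.69) and Cxcl11 at 8.47, 8.96 and 17.9 CPM (2.12, 1.45 to 3.14). Cxcl9, Cxcl1 and Cxcl11 passed 2-fold, as did 1.52% of 9929 genes. Cxcl2, Ccl2, Ccl3 and Ccl4 had no such order. Cxcl2 was highest in the middle range, at 18.0, 35.2 and 25.3 CPM from central to portal (1.41, 1.06 to 1.86). From central to portal Ccl2 stood at 9.51, 24.7 and 3.86 CPM, Ccl3 at 14.7, 37.6 and 3.47 CPM and Ccl4 at 34.5, 87.8 and 6.17 CPM, with portal to central folds of 0.41, 0.24 and 0.18 (1.43% of genes were at least 2-fold lower). The share of cells with Ccl4 was 2.87%, 3.40% and 2.98%. The levels of Ccl2, Ccl3 and Ccl4 rested on few cells. Of the 190 Ccl2 UMIs 109 lay in 3 cells, of 278 Ccl3 UMIs 250 in 5 and of 640 Ccl4 UMIs 541 in 6.

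**Figure D5:**
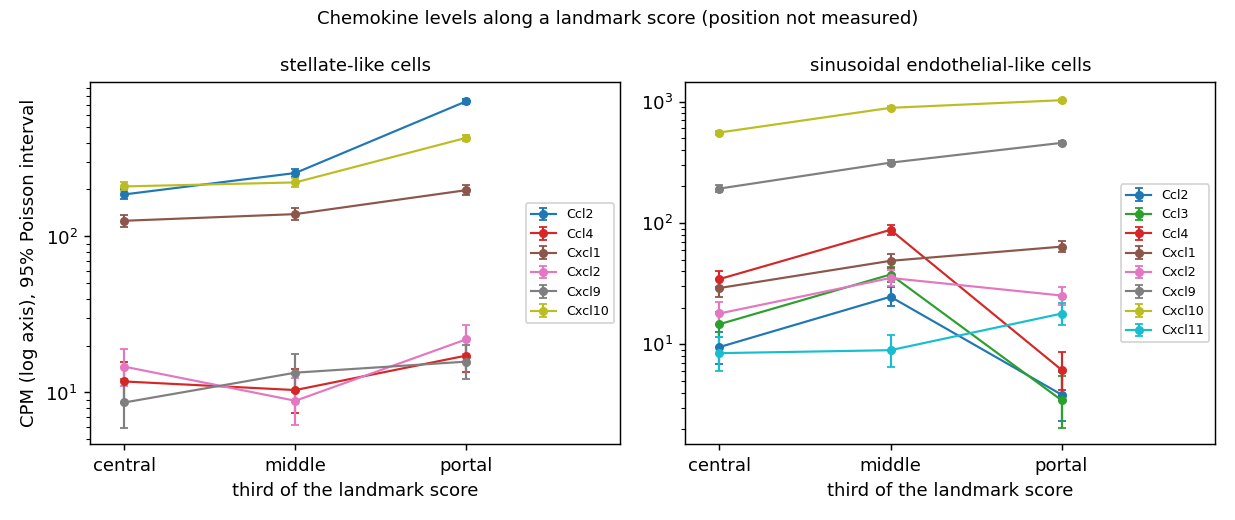
Levels of chemokines (CPM, log axis, with 95% Poisson intervals) in 3 ranges of a landmark score from central to portal, in stellate-like and sinusoidal endothelial-like cells, for chemokines with at least 150 UMIs. Ccl2 in stellate-like cells is at 736 CPM in the portal and 186 CPM in the central range.

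Receptors of these ligands lay mostly in the small leukocyte groups. Of 21 measured receptors 15 had at least 50 UMIs, and 10 of these were at least 2-fold higher in 1 type than in the next, against 24.8% of all genes. Cxcr2 stood at 1291 CPM in neutrophil-like cells, from 85 UMIs, and at 6.06 CPM in the next type. Ccr1 was also highest in neutrophil-like cells, at 957 CPM. Cxcr3 stood at 125 CPM in NK or ILC1-like and 112 CPM in T-like cells, from 150 UMIs in all. Ccr2 was seen in conventional dendritic-like (285 CPM), NK or ILC1-like (239 CPM) and T-like cells (208 CPM).

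Of 23 other chemokines measured, 17 had at least 50 UMIs and 8 were called by the 2-fold rule, which 24.8% of all genes passed. Ccl5, a T and NK cell product, stood at 15610 CPM in NK or ILC1-like cells. Cxcl12, the ligand of Cxcr4 that retains leukocytes, stood at 5034 CPM in stellate-like cells against 1035 CPM in portal fibroblast-like cells. Ccl6 reached 1428 CPM in neutrophil-like and 1025 CPM in Kupffer-like cells, Xcl1 1068 CPM in NK or ILC1-like cells, the eotaxin Ccl11 534 CPM in portal fibroblast-like cells and Cxcl16 420 CPM in Kupffer-like cells. Ccl24 and Ccl11, both eotaxins, thus lay in different types, Kupffer-like and portal fibroblast-like.

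The genes with profiles most like each chemokine over the 13 types were found by r of log2(CPM + 1). Ccl24 was closest to Spic (r = 0.97), a transcription factor of iron-recycling macrophages, Cxcl2 to the formyl peptide receptor Fpr2 (0.99), Ccl8 to Ms4a7 (0.99), Ccl3 to the signalling adaptor Tyrobp (0.91), Ccl4 to the selectin ligand Selplg (0.92) and Ccl2 to Rtn1 (0.90). For Cxcl1 the closest was Mapre3 (0.96), for Cxcl9 BC028528 (0.90), for Cxcl10 Lbx2 (0.89) and for Cxcl11 Zfp652os (0.86). Of the 45 combinations of 2 chemokines, Ccl8 with Ccl24 (0.92) and Ccl3 with Ccl4 (0.86) had the highest values, and Ccl4 with Cxcl1 the lowest (-0.74). Ccl8 had 0 UMIs in 11 of the 13 types, and 29 of its 56 UMIs in Kupffer-like cells lay in 1 cell. Its values with Ccl24 and Ms4a7 thus rest mainly on the Kupffer-like cells.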

How the data were processed

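The deposited table holds raw counts of UMIs, and per the submitters' processing notes Cell Ranger 2.1.1, Seurat 3.1 and GRCm38 were used, with no roles given. The number at the end of a barcode was read as the replicate number. Replicate 1 had 40645060 UMIs in 7362 cells and replicate 2 had 11867207 in 2341. The filter kept cells of 200 or more genes whose mitochondrial share did not pass 20%, and removed 597 and 0 cells. A cell received the type with most marker UMIs, at least 3 from 3 different markers and at least 2 times those of each other of 18 lists. Hepatocyte markers counted from 20 UMIs. This gate was set after the cells had been seen, no doublet caller was run, and typed cells can hold UMIs of other types' markers, so that leaving out cells with 2 or more of them left 1125 of 2518 Kupffer-like, 248 of 2821 sinusoidal endothelial-like and 146 of 2338 stellate-like cells. No count model was fitted, since each type lay in 1 library. Intervals are exact Poisson (CPM) or binomial (shares, ratios), of 95%, and a count of 0 allows 3. Co-detection used cells thinned to 1000 UMIs. Correlations over cells used log(1 + UMIs per 10000) and genes seen in 5% of cells. Genes named beside the chemokines were the 3 most alike over types, the 10 most alike over cells and up to 6 with the highest CPM of a list, of which the text gives a selection, the receptors of these ligands being chosen after their values were seen. Gene coordinates came from GENCODE vM21. The genes, lists, landmarks and calls were chosen with earlier results of these data known. Python 3.11.15, numpy 2.4.6 and scipy 1.17.1 were used, and the calls were tested on simulated data.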

Additional observations from a re-analysis of the deposited data

How the results depend on the processing

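No paired analysis was possible because there was 1 group and no test. The count of chemokines at least 2-fold above the next type was 6 and ranged from 5 to 8 under the alternatives, 5 without replicate 2, and could not be had without replicate 1. The count with at least 50% of UMIs in the top 5% of cells, 2, was 1 after thinning, 1 at no more than 5% mitochondrial UMIs, 1 and 1 without replicate 1 or 2, and 0 without cells that held 2 or more UMIs of another type's markers, which left 1125 Kupffer-like, 248 sinusoidal endothelial-like and 146 stellate-like cells. The 4 combinations seen together at a ratio of 2 became 2 under doubled marker minimums, 2 at no more than 5% mitochondrial UMIs and 1 without cells with other markers, and were 0 without replicate 1 and 4 without replicate 2. The 8 seen under 50% of an even spread, an analysis chosen after seeing the data, were 0 after thinning to 1000 UMIs, where an even spread itself gives lower shares, 2 without cells with other markers, 3 without replicate 1 and 5 without replicate 2. Without the top 1% of cells Ccl8 fell to 0 CPM in Kupffer-like and Cxcl10 to 16.0 CPM in neutrophil-like cells, and Cxcl11 to 5.68 CPM in sinusoidal endothelial-like cells. Leaving out a replicate took away whole types, since stellate-like cells lay almost only in replicate 2 and the other types in replicate 1. The counts without a replicate thus reflect which types were left and say nothing about how firm a call is. The cause of the other shifts was not tested. Groups of 21 to 30 cells limit the leukocyte values.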

Other observations

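Groups with fewer than 20 cells and cells without a type entered no comparison of levels. The 13 monocyte-like cells had 4952 CPM of Ccl24, 4501 CPM of Cxcl9, 4462 CPM of Cxcl10, 2115 CPM of Ccl4, 1225 CPM of Ccl3 and 748 CPM of Cxcl11, and 0 UMIs of Ccl2 and Ccl8. Few of these cells carried each gene, with Ccl24 seen in 3, Cxcl9 in 5, Cxcl10 in 4, Ccl4 in 3, Ccl3 in 4 and Cxcl11 in 2. For each of these 6 genes 1 cell held between 49.5% (Ccl3) and 56.9% (Cxcl10) of the UMIs. Cxcl2 stood at 1174 CPM, from 91 UMIs of which 67 lay in 1 cell, and Cxcl1 had 1 UMI. Of 2 basophil or mast-like cells, 1 held 184 Ccl4 and 116 Ccl3 UMIs. The 591 cells without a type held 2195 Ccl4 UMIs (747 CPM, 716 to 779), 19.3% of all, at a median depth of 2845 UMIs.

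The other 3 lists are given as counts beside the 24.8% of all genes at least 2-fold higher in 1 type than in the next, and the first 2 lie near that share. Of 14 NF-kB genes 4 were at least 2-fold higher in 1 type than in the next, the cytokines Il1b and Tnf and the prostaglandin synthase Ptgs2 in neutrophil-like cells and Il6 in Kupffer-like cells (563 CPM, against 42.4 CPM in portal fibroblast-like cells). Il1b stood at 11588 CPM in neutrophil-like and 3184 CPM in Kupffer-like cells. Of 16 interferon-induced genes 4 were called, Irf7, Gbp3 and Oasl1 in Kupffer-like cells and Ifi47 in neutrophil-like cells. Of 14 immediate early and heat shock genes 1 was called, Atf3, at 4319 CPM in cholangiocyte-like and 1836 CPM in mesothelial-like cells.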
